A study of Rattus norvegicus with 12 samples.

Results

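Messenger RNA of 10 neuropeptide-related genes was examined in the central amygdala (CeA) of rats exposed to chronic intermittent ethanol (CIE) vapor. The genes were chosen by name: *Crh*, *Crhbp*, *Sst*, *Npy*, *Nts*, *Tac1*, *Tac3*, *Cck*, *Vip* and *Cartpt*. All 10 symbols were found among the 37209 genes counted, and all 10 passed the filter on low counts that left 20944 genes for testing. The CIE group held 6 rats given daily cycles of ethanol vapor and air, and the Control group held 6 rats kept in air. All 12 were adult male wild type Sprague Dawley rats aged 14 to 16 weeks, housed in groups, and the cage of each rat is not given in the labels, so a cage effect cannot be told apart from the treatment. The CIE rats were killed as their last vapor session ended, so the comparison is of intoxicated, exposed rats with rats that had breathed only air. CeA tissue punched from 1 hemisphere of each rat, chosen at random, gave 1 poly-A RNA-Seq library, with 39082548 to 95647601 counts per library.

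The CeA is the main output nucleus of the amygdala, and most of its neurons release GABA together with one or more peptides. A neuropeptide is made as a larger precursor, cut and amidated in the secretory pathway, stored in dense-core vesicles and released during strong firing, after which it acts on G protein-coupled receptors. *Crh* encodes corticotropin-releasing factor (CRF), the stress peptide long studied in the CeA in alcohol dependence. *Crhbp* encodes the secreted CRF-binding protein, which takes up CRF outside the cell. The other genes encode the precursors of somatostatin (*Sst*), neuropeptide Y (*Npy*), neurotensin (*Nts*), substance P and neurokinin A (*Tac1*), neurokinin B (*Tac3*), cholecystokinin (*Cck*), vasoactive intestinal peptide (*Vip*) and the CART peptides (*Cartpt*).

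Several peptide genes are textbook targets of cyclic AMP signaling through the cyclic AMP response element (CRE), so the DNA at their start sites is shown first. RefSeq start regions on the GRCr8 assembly, each of 300 bases (250 before the start base and 50 from it on), were at hand for 7 of the 10 genes, and *Crh*, *Tac3* and *Cck* are named only. *Sst* and *Cartpt* are printed because theirs hold the full CRE, and *Crhbp* and *Nts* because their transcripts differed nominally between the groups. Each runs 5′ to 3′ on the strand of its gene, and capitals mark the CRE (TGACGTCA) or its core (TGACG, or CGTCA where it lies on the opposite strand).
Sst: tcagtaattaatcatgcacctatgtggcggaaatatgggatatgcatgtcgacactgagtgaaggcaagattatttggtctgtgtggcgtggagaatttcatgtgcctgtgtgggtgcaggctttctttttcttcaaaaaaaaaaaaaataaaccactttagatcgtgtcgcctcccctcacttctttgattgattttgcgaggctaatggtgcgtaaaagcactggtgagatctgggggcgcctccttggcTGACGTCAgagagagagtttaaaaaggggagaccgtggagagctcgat
Cartpt: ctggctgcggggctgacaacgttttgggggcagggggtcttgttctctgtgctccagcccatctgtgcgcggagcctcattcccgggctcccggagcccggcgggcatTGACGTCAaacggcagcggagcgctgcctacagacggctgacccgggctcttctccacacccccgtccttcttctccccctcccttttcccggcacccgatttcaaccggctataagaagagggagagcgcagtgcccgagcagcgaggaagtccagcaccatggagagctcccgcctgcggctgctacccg
Crhbp: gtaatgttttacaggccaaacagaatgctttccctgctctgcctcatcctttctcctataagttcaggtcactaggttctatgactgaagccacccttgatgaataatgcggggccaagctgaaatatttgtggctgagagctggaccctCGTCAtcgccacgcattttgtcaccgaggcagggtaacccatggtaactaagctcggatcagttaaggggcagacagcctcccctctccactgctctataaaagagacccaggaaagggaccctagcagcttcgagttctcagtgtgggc
Nts: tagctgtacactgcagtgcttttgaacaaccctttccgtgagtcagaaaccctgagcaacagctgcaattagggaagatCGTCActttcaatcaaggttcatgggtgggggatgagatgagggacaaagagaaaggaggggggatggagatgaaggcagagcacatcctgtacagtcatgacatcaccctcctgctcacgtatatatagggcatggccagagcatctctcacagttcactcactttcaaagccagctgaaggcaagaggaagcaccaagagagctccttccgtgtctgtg
These windows lie at chr11:90461296-90461595 on the plus strand for *Sst*, and on the minus strand at chr2:32991186-32991485 for *Cartpt*, chr2:28439397-28439696 for *Crhbp* and chr7:39460839-39461138 for *Nts*. The CRE began 2 bases after the listed start base in *Sst* and 142 bases before it in *Cartpt*. The full CRE occurred in 2 of the 7 windows and in 1.83% of 33469 RefSeq windows of this length, searched on both strands. The core, which every full CRE contains on both strands, occurred in 6 of the 7 windows (all but *Npy*) and in 21.2% of all windows. The AP-1 letters TGANTCA were found in *Nts* (7.33% of all windows) and the TATA box letters TATAAA in *Crhbp* and *Vip* (14.2% of all windows). Such matches describe letters in a window and do not show binding.

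Markers of neighboring tissue varied between the punches. *Slc17a7*, the vesicular glutamate transporter of cortical and basolateral amygdala neurons, was above 100 CPM (the count scaled to a common library size, with TMM factors) in 4 rats, CIE rats 1, 2 and 4 and Control rat 10, and between 3.66 and 43.3 CPM in the other rats. All 12 markers of such glutamatergic neurons had positive log2 fold changes (median 1.03, CIE relative to Control), 3 of them (*Neurod2*, *Rspo2* and *Fezf2*) at a nominal p below 0.05, and their summed level was 587.2 to 1316 CPM in CIE and 491.9 to 1100 CPM in Control. Striatal projection neuron markers summed to 626.0 to 3928 CPM in CIE and 390.3 to 4329 CPM in Control, with 0 of 12 nominal. Myelinating oligodendrocyte markers were nominally lower in CIE for 8 of 8 genes (median log2 fold change -0.58), with sums of 5607 to 13540 CPM against 8572 to 16060 CPM. The markers of the labelled tissue were present in every rat, with sums of 635.0 to 1994 CPM for 10 CeA neuron markers and 1792 to 2317 CPM for 8 GABAergic markers, and 0 of 10 and 0 of 8 differed nominally. Cortical-type interneuron markers, of which 1 of 11 (*Chodl*) was nominally lower in CIE, summed to 384.0 to 565.1 CPM in CIE and 329.1 to 660.2 CPM in Control. Intercalated cell (0 of 5) and pan-neuronal markers (0 of 8) did not differ nominally. In a punch, fewer cells of a type and less RNA per cell cannot be told apart.

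Across the 10 genes, *Crh*, *Nts* and *Tac3* were lower and *Crhbp* and *Cck* were higher in CIE at a nominal p below 0.05 in edgeR's quasi-likelihood F test. Over all genes tested, 8.31% were nominal in either direction, 4% higher and 4.31% lower. The genes were chosen with earlier results known, and the study had already reported *Crh* lower and *Crhbp* higher in these rats. These shares therefore give a scale and no test of the 10 genes as a set. After adjustment over all genes, 0 of the 10 passed a 5% false discovery rate (FDR), which 0.363% of genes did, and the smallest FDR among the 10 was 0.472 (*Crh*). In 0 of the 10 genes were the groups free of overlap, against 0.893% of all genes. The median log2 fold change of the 10 was 0.10, beside 0.00 for all genes, with 5 genes on each side of 0. The number of nominal genes rested on single rats: it was 1 without CIE rat 2 or Control rat 7, 8 or 9, where 7.40%, 8.24%, 6.47% and 6.38% of all genes were nominal. It was 2 without CIE rat 1 or 4 (6.66% and 6.58% of all genes), 3 without CIE rat 6 or Control rat 11 (9.26% and 6.39%), 4 without CIE rat 5 or Control rat 12 (8.60% and 8.07%) and 5 without CIE rat 3 or Control rat 10 (13.3% and 11.4%).

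**Figure D1:**
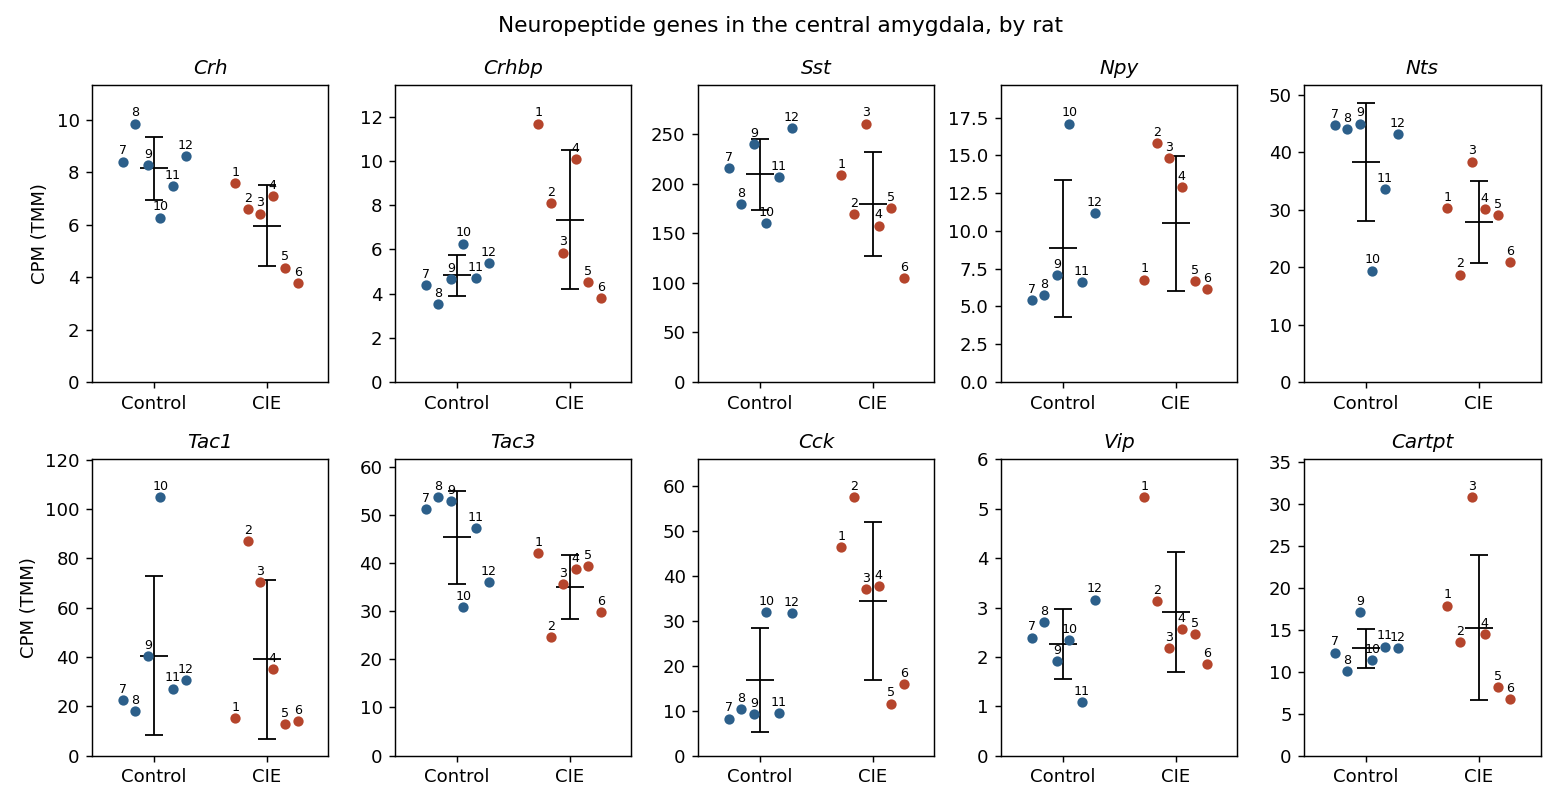
CPM (TMM-scaled, linear axes from 0) of each of the 10 genes in each rat, with rat numbers, by group; black bars are the group mean and SD of 6 rats. *Crh* lies lowest in CIE rats 5 and 6, *Cck* is above every Control value in 4 CIE rats, and *Tac1* is highest in Control rat 10.

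*Crh* was lower in CIE and was the only one of the 10 genes that stayed nominal in all 21 alternative fits. These varied the scaling, the filter, the method, the covariates and the rats. Of the 21, 12 left out 1 rat each, and all reused the same rats, so they are not independent checks. In CIE, *Crh* was lowest at 3.76 CPM, with a median of 6.51 and a highest value of 7.58 CPM. In Control, the lowest was 6.27, the median 8.34 and the highest 9.86 CPM. CIE rats 5 and 6 lay below all Control rats, 4 Control rats lay above all CIE rats, and the groups overlapped through Control rats 10 and 11. The means were 5.97 ± 1.54 and 8.15 ± 1.20 CPM (SD, n = 6 each), a log2 fold change of -0.45 (SE 0.17, FDR = 0.472). The unadjusted edgeR p was 0.0193, and a two-sided exact permutation test of log2 CPM gave p = 0.0238, where the smallest p that 6 rats against 6 allow is 0.00216. Without Control rat 8, the exact permutation test gave a p below 0.05 for 0 of the 10 genes, *Crh* included. The counts behind these values ran from 289 to 948 per rat.

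*Crh* was also compared with the rats rich in *Slc17a7* left out and with marker levels as covariates. Without these 4 rats, a choice made after seeing the data, *Crh* differed by -0.80 on the log2 scale (SE 0.18, FDR = 0.277). In that fit 5.40% of all genes were nominal. The remaining 3 CIE rats had 3.76 to 6.43 CPM against 7.47 to 9.86 CPM in the remaining 5 Control rats. The share of all genes that split in this way among so few rats is not given, so the split is a description only. The rats left out were the 3 CIE rats with the most *Crh* (7.58, 7.08 and 6.60 CPM) and the Control rat with the least (6.27 CPM), so leaving them out widens the difference. With glutamatergic and striatal marker levels as covariates, *Crh* alone of the 10 genes stayed nominal, at a log2 fold change of -0.54, where 8.74% of all genes were nominal. Over the 21 alternative fits, its unadjusted p ranged from 0.000953 to 0.0486 and its log2 fold change from -0.80 to -0.35. The highest of these p values came without Control rat 8, the rat with most *Crh*.

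*Crhbp*, which sequesters CRF, differed in the opposite direction and was highest in rats rich in glutamatergic markers. *Crhbp* ranged from 3.80 to 11.7 CPM in CIE (median 6.98) and from 3.53 to 6.27 CPM in Control (median 4.68). CIE rats 1, 4 and 2 lay above every Control rat, with 11.7, 10.1 and 8.10 CPM, while CIE rats 3, 5 and 6, at 5.86, 4.53 and 3.80 CPM, lay within the Control range. These 3 high rats were the 3 CIE rats above 100 CPM of *Slc17a7*. The means were 7.35 ± 3.16 and 4.82 ± 0.927 CPM (SD, n = 6 each), a log2 fold change of 0.61 (SE 0.25, edgeR p = 0.0304, FDR = 0.540), and the exact permutation test gave p = 0.108. Without the 4 rats rich in *Slc17a7* the difference was 0.08 (SE 0.18) on the log2 scale, with glutamatergic and striatal covariates 0.22 (SE 0.20) and with the myelin covariate 0.29 (SE 0.35), none of them nominal. Leaving out CIE rat 1, 2 or 4 or Control rat 7, 8 or 9 also ended the nominal call, with an unadjusted edgeR p of up to 0.0935. All 12 glutamatergic markers had positive fold changes, and all 8 myelin markers were nominally lower in CIE. For every gene these covariates therefore overlap with the treatment, and such a fit cannot separate the 2.

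Within a rat, the reads of the binding protein can be set against those of its ligand. There were 1.19 ± 0.251 *Crhbp* counts per *Crh* count in CIE (SD, n = 6, range 0.911 to 1.54) and 0.616 ± 0.213 in Control (n = 6, range 0.358 to 1.0). A single Control value, that of rat 10 at 1.0, reached into the CIE range, and the other Control rats were at or below 0.630. The CIE rats below 100 CPM of *Slc17a7*, rats 3, 5 and 6, had 0.911, 1.04 and 1.01, and those above it had 1.23 to 1.54. The ratio depends on the lengths of both transcripts, so it compares rats and does not say which protein is more abundant. It was formed after both genes had been seen to differ in opposite directions and was given no test.

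**Figure D2:**
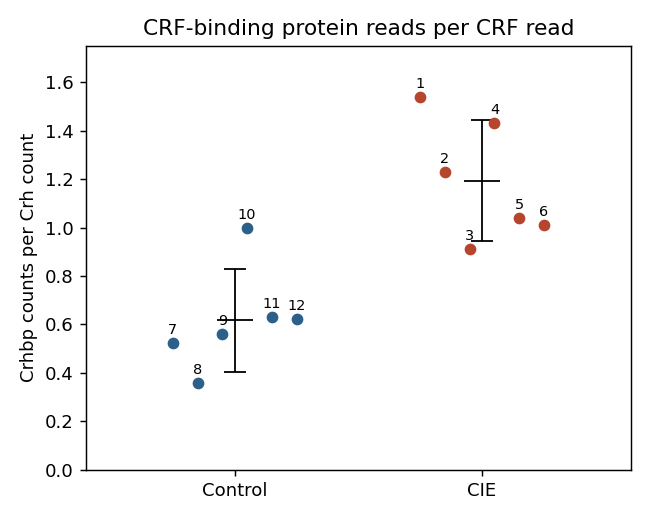
*Crhbp* counts per *Crh* count (linear axis from 0) in each rat, with rat numbers; black bars are the mean and SD of 6 rats per group. The CIE rats lie between 0.911 and 1.54, and Control rat 10, at 1.0, is the only Control rat inside that range.

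The partners of CRF showed no nominal difference. Of 5 genes listed, 3 were tested and 0 were nominal in either direction. *Crhr1*, the main CRF receptor of the forebrain, had 20.7 ± 2.50 CPM in CIE and 20.9 ± 2.79 CPM in Control (SD, n = 6 each), a log2 fold change of -0.01 (SE 0.10). *Crhr2*, the receptor that prefers urocortins, had 5.91 ± 4.10 and 4.6 ± 3.49 CPM, a log2 fold change of 0.36 (SE 0.49). *Ucn3*, the precursor of urocortin 3, had 0.538 ± 0.613 and 0.952 ± 1.16 CPM, with a log2 fold change of -0.82 (SE 1.01, FDR = 0.881). *Ucn* and *Ucn2* had at most 12 and 14 counts in a rat and were left out by the filter.

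*Nts* and *Tac3*, the precursors of neurotensin and neurokinin B, were both nominally lower in CIE. *Nts* ranged from 18.7 to 38.4 CPM in CIE (median 29.6) and from 19.4 to 45.0 CPM in Control (median 43.6). Control rats 7, 8, 9 and 12 lay above all CIE rats, whereas Control rat 10, at 19.4 CPM, was among the lowest of all. The means were 27.9 ± 7.16 and 38.3 ± 10.2 CPM (SD, n = 6 each), a log2 fold change of -0.46 (SE 0.21, edgeR p = 0.0437, FDR = 0.584, exact permutation p = 0.110). *Nts* was nominal in 10 of 21 alternative fits. It stayed nominal in 3 of 12 fits that left out 1 rat, those without CIE rat 3 or Control rat 10 or 11, and otherwise the unadjusted p was 0.0514 to 0.0991. On the log2 scale the difference was -0.24 (SE 0.17, not nominal) with glutamatergic and striatal covariates, -0.81 (SE 0.26, nominal, FDR = 0.334) with the myelin covariate and -0.50 (SE 0.17, nominal, FDR = 0.694) without the 4 rats rich in *Slc17a7*.

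*Tac3* ranged from 24.6 to 42.0 CPM in CIE (median 37.2) and from 30.8 to 53.6 CPM in Control (median 49.2). Control rats 7, 8, 9 and 11 lay above all CIE rats, and Control rats 10 and 12 lay within the CIE range. Group means were 35.0 ± 6.56 and 45.3 ± 9.58 CPM (SD, n = 6 each), a log2 fold change of -0.37 (SE 0.15, edgeR p = 0.0309, FDR = 0.542, exact permutation p = 0.0736). It was -0.45 (SE 0.14, nominal, FDR = 0.569) without the 4 rats rich in *Slc17a7*, -0.25 (SE 0.15, not nominal) with glutamatergic and striatal covariates and -0.38 (SE 0.23, not nominal) with the myelin covariate. The nominal call ended without CIE rat 2 or 6 or Control rat 7, 8, 9 or 11, with an unadjusted p of up to 0.0791.

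*Cck*, a peptide made by cortical and basolateral amygdala pyramidal cells as well as by interneurons, had the largest fold change of the 10 genes and a 6.96-fold span from the lowest to the highest rat. *Cck* ranged from 11.6 to 57.5 CPM in CIE (median 37.4) and from 8.27 to 32.0 CPM in Control (median 9.95). CIE rats 1 to 4 lay above all Control rats, and Control rats 7, 8, 9 and 11 lay below all CIE rats. The groups overlapped through CIE rats 5 and 6, at 11.6 and 16.0 CPM, and Control rats 10 and 12, at 32.0 and 31.7 CPM. With means of 34.4 ± 17.6 and 16.8 ± 11.6 CPM (SD, n = 6 each), the log2 fold change was 1.03 (SE 0.45, edgeR p = 0.0377, FDR = 0.566, exact permutation p = 0.0714). *Cck* was at 31.7 CPM or more in the 5 rats with the most *Slc17a7*, while CIE rat 3 had 37.0 CPM of *Cck* with 5.21 CPM of *Slc17a7*. Without the 4 rats rich in *Slc17a7* the difference was 0.65 (SE 0.47), with glutamatergic and striatal covariates 0.60 (SE 0.33) and with the myelin covariate 0.47 (SE 0.58) on the log2 scale, none of them nominal. The call was kept in 4 of 12 fits that left out 1 rat, those without CIE rat 5 or 6 or Control rat 10 or 12, and otherwise the unadjusted p was 0.0585 to 0.0933.

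**Figure D3:**
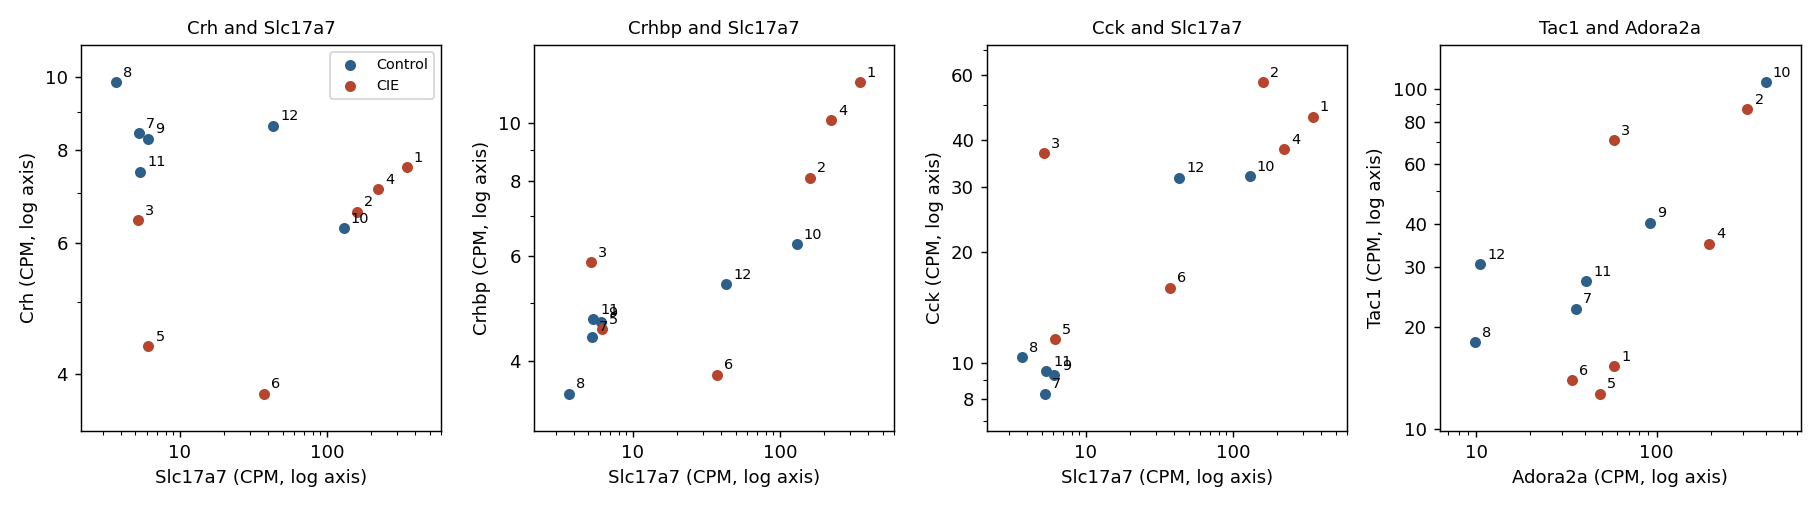
Each panel plots a gene (CPM, log axis) against a marker of neighboring tissue (CPM, log axis) for the 12 rats, with rat numbers. *Crhbp* is highest in CIE rats 1, 4 and 2, which have 348.4, 223.0 and 160.5 CPM of *Slc17a7*, *Crh* is lowest in CIE rats 5 and 6, which have 6.13 and 37.2 CPM, and *Tac1* is highest in Control rat 10, which has 400.4 CPM of *Adora2a*.

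*Sst*, the precursor of somatostatin and the marker of a large class of CeA neurons, had 104.5 to 260.8 CPM in CIE (median 172.9) and 160.7 to 256.1 CPM in Control (median 211.2). The highest and the lowest value were both from CIE rats, 3 and 6. The log2 fold change was -0.22 (SE 0.18, FDR = 0.801, exact permutation p = 0.245). *Sst* was negative in 21 of 21 alternatives and nominal in 3 of them: the myelin covariate (-0.71, SE 0.17, FDR = 0.192), limma-voom with sample quality weights (-0.33, SE 0.14, FDR = 0.239) and the fit without CIE rat 3 (-0.36, SE 0.16, FDR = 0.360). Myelin markers themselves differed between the groups, so this covariate and the treatment overlap.

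*Tac1*, the precursor of substance P and also a gene of direct-pathway striatal neurons, had the widest range of the 10 genes, with an 8.26-fold span from the lowest to the highest rat. *Tac1* was 12.7 to 87.0 CPM in CIE (median 25.2) and 18.0 to 104.7 CPM in Control (median 28.8). CIE rats 2 and 3 and Control rat 10 stood above all others, and Control rat 10 and CIE rat 2 also had the most *Adora2a*, a receptor gene of striatal neurons, with 400.4 and 317.5 CPM. CIE rat 3 had 70.5 CPM of *Tac1* with 58.1 CPM of *Adora2a*, and CIE rat 4 had 35.1 CPM of *Tac1* with 194.6 CPM of *Adora2a*. *Adora2a* is 1 of the 12 striatal markers and is not a direct-pathway gene, and no other striatal marker is given by rat here. With the 12 markers together, *Tac1* had r = 0.79 within the groups (adjusted permutation p = 0.112), and 0.47 without CIE rat 2 and Control rat 10. Between the groups the log2 fold change was -0.05 (SE 0.54, FDR = 0.987, exact permutation p = 0.734), and 0.50 (SE 0.48) without Control rat 10.

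*Npy*, the precursor of an anxiety-reducing peptide, had 6.17 to 15.8 CPM in CIE (median 9.83) and 5.41 to 17.1 CPM in Control (median 6.85), with a log2 fold change of 0.25 (SE 0.33, FDR = 0.894, exact permutation p = 0.442). An entry named LOC100912228 followed *Npy* closely, with 0.835 to 1.09 counts per *Npy* count in every rat, and it could not be matched to the reference table. Whether both entries share reads was not tested, so the level of *Npy* is uncertain. Their sum was 21.1 ± 9.04 CPM in CIE and 17.4 ± 9.89 CPM in Control (SD, n = 6 each), and the log2 fold change of LOC100912228 alone was 0.30 (SE 0.36).

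*Cartpt* had 6.71 to 30.8 CPM in CIE (median 14.0) and 10.1 to 17.1 CPM in Control (median 12.6). CIE rat 3 was far above the rest and CIE rats 5 and 6 were below all Control rats, so the spread of log2 CPM was 0.79 in CIE and 0.25 in Control (SD, n = 6 each). Its log2 fold change was 0.25 (SE 0.29, FDR = 0.874, exact permutation p = 0.805), and -0.08 without CIE rat 3. *Vip*, which rested on 42 to 340 counts per rat, had 1.86 to 5.23 CPM in CIE (median 2.52) and 1.09 to 3.16 CPM in Control (median 2.37). CIE rat 1, with the most *Slc17a7*, had the most *Vip*, and the log2 fold change was 0.35 (SE 0.27, FDR = 0.801, exact permutation p = 0.323).

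**Figure D4:**
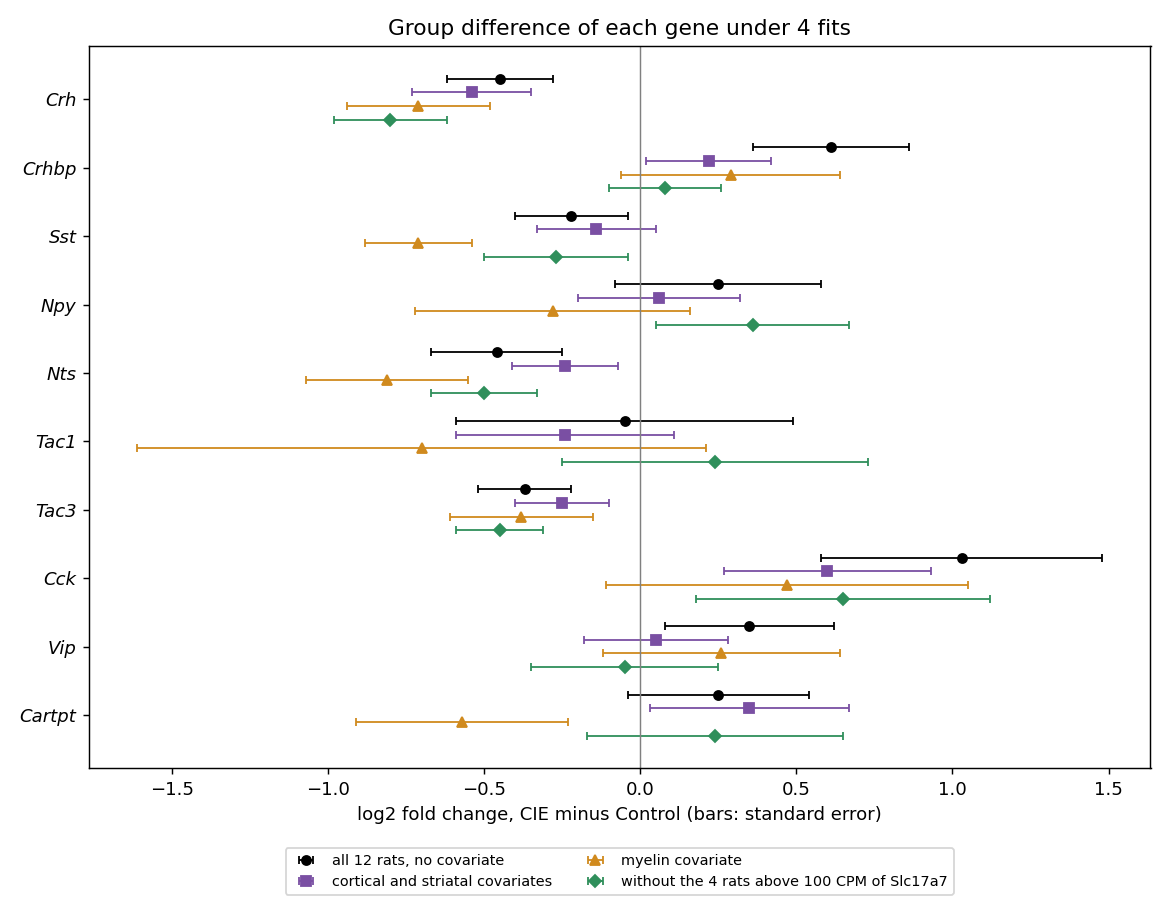
Log2 fold change (CIE relative to Control, bars are the standard error) of each gene in all 12 rats, with glutamatergic and striatal marker covariates, with a myelin covariate, and without the 4 rats above 100 CPM of *Slc17a7*. *Crh* is at -0.45 with all rats and -0.80 without the 4, while *Crhbp* moves from 0.61 to 0.08.

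Among the receptors of the other peptides, 16 of 19 listed genes were tested, 0 were nominally higher and 1 lower. This was *Ntsr2*, a neurotensin receptor of astrocytes, with 108.7 ± 11.1 CPM in CIE and 122.4 ± 7.81 CPM in Control (SD, n = 6 each) and a log2 fold change of -0.17 (SE 0.07, FDR = 0.554). Nominal calls made up 4% (higher) and 4.31% (lower) of all genes, and the median log2 fold change of the list was 0.03. The neurotensin-binding sorting receptor *Sort1* had a log2 fold change of 0.09 (SE 0.15), the somatostatin receptor *Sstr1* one of 0.13 (SE 0.19) and the neuronal neurotensin receptor *Ntsr1* one of -0.18 (SE 0.22). *Sstr2*, *Npy4r* and *Tacr2* were left out by the filter, and *Sstr2* was listed at 0 in every rat. That 0 does not show that the receptor is absent, because the annotation used for counting is not given.

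Of 18 further peptide precursors, 15 were tested, and 1 was nominally higher and 0 lower. *Grp*, the precursor of gastrin-releasing peptide, had 5.08 ± 2.86 CPM in CIE and 2.84 ± 0.776 CPM in Control (SD, n = 6 each), with a log2 fold change of 0.83 (SE 0.32, FDR = 0.476). It was highest in CIE rats 3 and 1, at 9.83 and 7.09 CPM, and CIE rats 2, 5 and 6 lay within the Control range. *Tac4*, *Hcrt* and *Pmch* were left out by the filter. Of the genes for peptide processing and granins, 0 of 13 tested were nominal, with log2 fold changes from -0.21 to 0.26. *Cpe*, the carboxypeptidase that trims peptide precursors, had 1529 ± 123.3 CPM in CIE and 1467 ± 80.6 CPM in Control, and *Scg2*, a granin of dense-core vesicles, had 475.3 ± 191.1 and 465.3 ± 84.3 CPM (SD, n = 6 each). Of 8 peptide-degrading enzymes 0 were nominal, with log2 fold changes from -0.18 for *Ece2*, an endothelin-converting enzyme, to 0.17.

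Covariation from rat to rat was examined within the groups. After the group means were removed, 125 relations were computed over 12 rats, 45 between 2 of the genes and 80 between a gene and the level of a marker list. For correlations and covariates, this level was the mean log2 CPM of the tested genes of a list, not the summed CPM given above. Of each kind of relation, 1 passed an adjusted permutation p of 0.05. *Npy* and *Tac1* were correlated at r = 0.92 (permutation p = 0.00058, adjusted 0.0362; rho = 0.92, adjusted 0.0187), with r = 0.97 in CIE and 0.87 in Control. Without CIE rat 2 and Control rat 10, r was 0.85. With single rats left out, r was 0.88 to 0.96 and the adjusted permutation p was 0.0112 to 0.23, and the relation did not pass in 8 of 12 cases, those without CIE rat 1, 2, 4 or 5 or Control rat 7, 8, 10 or 11. Relations of both genes with striatal markers did not pass (r = 0.79 for *Tac1*, adjusted permutation p = 0.112; r = 0.71 for *Npy*, adjusted 0.152), and without the same rats these fell to 0.47 and 0.29.

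*Crhbp* was correlated at r = -0.86 with the markers of cortical-type interneurons (permutation p = 0.0001, adjusted 0.0125; rho = -0.89, adjusted 0.0112), with -0.90 in CIE, -0.99 in Control, and -0.86 without CIE rats 1 and 6. With single rats left out, r was -0.91 to -0.79, and the relation did not pass in 3 of 12 cases, those without CIE rat 4 or Control rat 8 or 10 (adjusted permutation p up to 0.0775). Of the 11 cortical-type interneuron markers 9 had negative fold changes in CIE, whereas all 12 glutamatergic markers had positive ones. Which cells the interneuron list follows in these punches was not tested. With CeA neuron markers *Crhbp* had r = 0.79 (adjusted permutation p = 0.0858), with 0.94 in CIE and 0.66 in Control, and this relation did not pass either. With glutamatergic markers *Crhbp* had r = 0.74 (adjusted permutation p = 0.182), and *Cck* had 0.74 (adjusted 0.112). *Nts* and *Tac3*, both lower in CIE, had r = 0.78 (adjusted permutation p = 0.112), which dropped to 0.38 without CIE rat 2 and Control rat 10. *Sst* and *Cartpt* had r = 0.82 (adjusted permutation p = 0.112), and 0.46 without CIE rats 3 and 6. *Crh* and *Crhbp* had r = 0.93 in CIE and -0.84 in Control (exact permutation p = 0.00139 and 0.0458, unadjusted), a difference in sign that was not tested, and r = 0.60 over both groups (adjusted permutation p = 0.415), which was 0.12 without CIE rats 5 and 6.

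**Figure D5:**
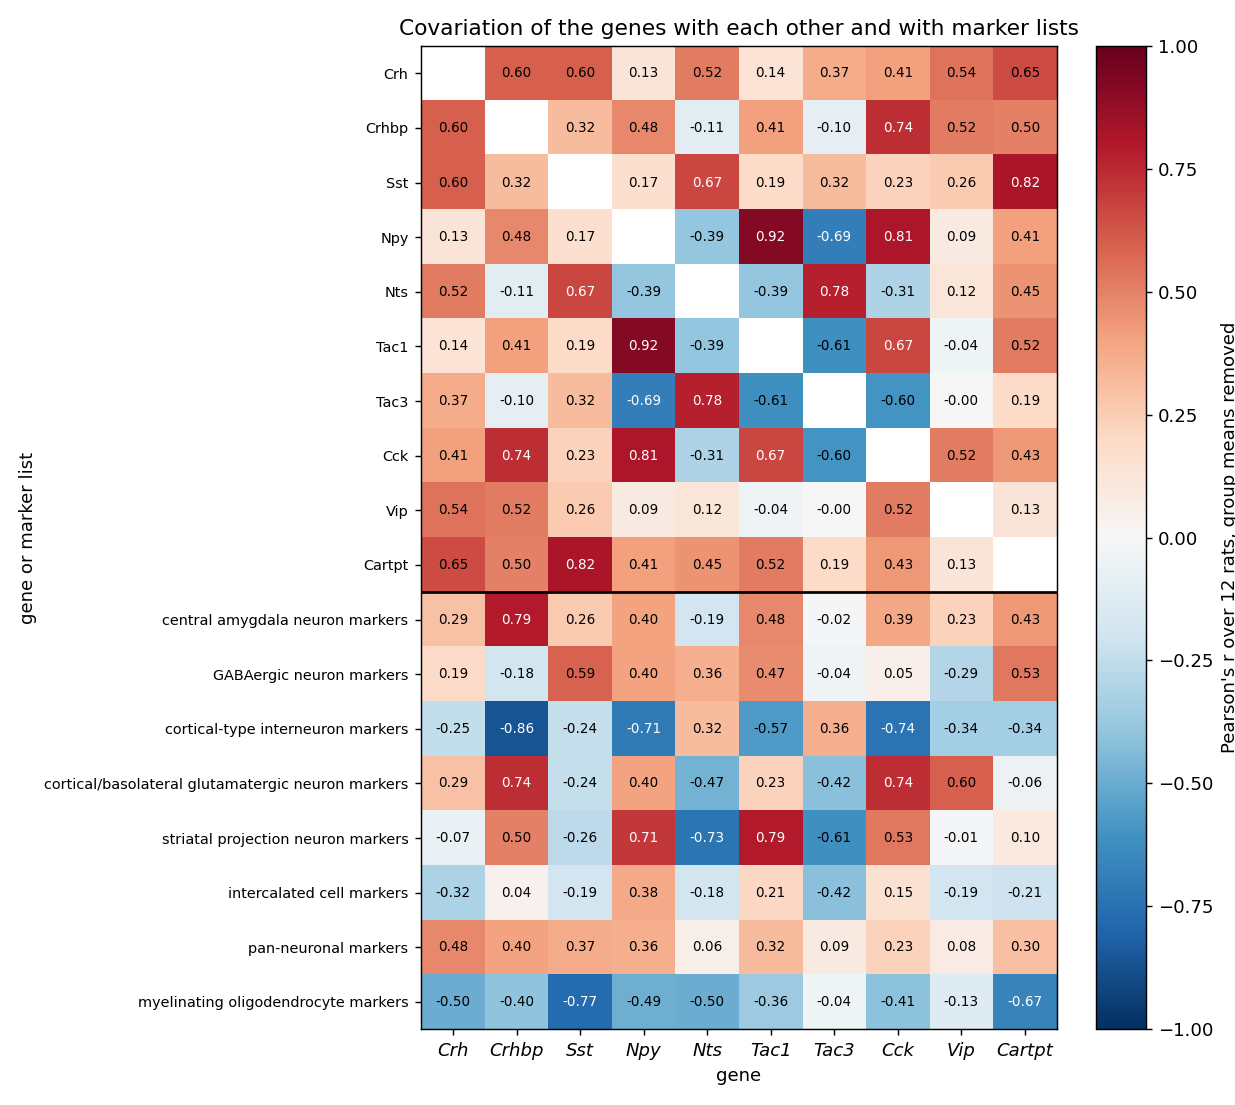
Pearson's r over 12 rats, group means removed, between the 10 genes (columns) and the same genes or the levels of marker lists (rows); red is positive and blue negative. *Npy* with *Tac1* (0.92) and *Crhbp* with the cortical-type interneuron markers (-0.86) are the relations that passed an adjusted p of 0.05.

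For each gene, the transcripts with the most similar pattern over the 12 rats were sought among 16891 genes with a mean of at least 1 CPM, as a description. The pattern was log2 CPM with the group means removed, so the group difference did not enter. The highest r among so many genes over 12 rats was given no test. *Crhbp* lay closest to *Sprn* (r = 0.98) and *Sv2b* (r = 0.96), a synaptic vesicle protein gene, and *Tac1* to *Kbtbd4* (r = 0.96), *Apopt1* (r = 0.96) and *Calb1* (r = 0.94), which encodes the calcium-binding protein calbindin. *Crh* lay closest to *Myom2* (r = 0.92), *C1qtnf1* and *Senp8* (r = 0.90 each), *Nts* to *Ankrd55* (r = 0.95) and *Cnksr1* (r = 0.94), and *Tac3* to *Trhr2* (r = 0.87), each among genes with a name other than a LOC number. With the same limit, *Cck* lay closest to *Azi2* (r = 0.94), *Moxd1* (r = 0.89) and *Ythdc1* (r = 0.87), *Sst* to *Wrnip1* (r = 0.95) and *Blcap* (r = 0.94), *Vip* to *Hpse* (r = 0.86) and *Cartpt* to *Nradd* (r = 0.92) and *Ldha* (r = 0.90). After LOC100912228 (r = 0.99), *Npy* lay closest to *Ssr3* and *Naa20* (r = 0.93 each).

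The count of nominal genes was also taken with other methods and samples. DESeq2 gave 5 of 10 (9.21% of all genes nominal) and limma-voom with sample quality weights 6 of 10 (17.2%). A myelin covariate gave 3 of 10 (10.3%) and the fit without the 4 rats rich in *Slc17a7* gave 3 of 10 (5.40%). *Crh* was nominal in each of these.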

How the data were processed

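Poly-A RNA-Seq of CeA punches was available for 6 CIE and 6 Control rats, grouped by the treatment label because every sample title carries the same suffix. The authors deposited raw counts per gene, for which BWA placed the read pairs on Rnor_6.0 and HTSeq counted them; the annotation and the strand and overlap settings are not given in the sources used here. Reads of overlapping or near-identical genes may therefore be split, and levels of different genes were not compared because transcript lengths were not used here. The study itself used DESeq2 1.26.

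Counts were scaled by TMM and filtered with filterByExpr in edgeR 4.0.16 (R 4.3.3), and 20944 genes were fitted with the quasi-likelihood F test, two-sided and without covariates. Calls were a nominal p below 0.05 or 5% FDR (Benjamini-Hochberg over all genes tested). The SE is the log2 fold change over the square root of F. Exact permutation tests and correlations used log2 CPM with a prior count of 2, and correlations used 100000 permutations within groups, adjusted over 125 relations (scipy 1.17.1). Named genes were the 10 genes, list genes at nominal p, *Crhr1* and *Crhr2*, up to 4 list genes of highest mean CPM, and the nearest genes by correlation. The alternatives were other scalings and filters, DESeq2 1.42.0, limma-voom with sample quality weights (limma 3.58.1), marker covariates, linear CPM, group means kept, and each rat left out. Fits were tested on simulated data. The genes and lists were chosen with earlier results of these data known. P-values of the group comparisons set the group difference against the spread between rats. The counting error of a gene depends on its own counts per rat, within totals of 39082548 to 95647601. Names and start regions came from RefSeq tables on GRCr8, and no coordinates of Rnor_6.0 were used.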

Additional observations from a re-analysis of the deposited data

Results flagged for a closer look

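In 20 groups examined (10 genes in each of 2 groups), 1 held a rat far from the rest, where chance alone flags about 1 in 20. *Tac1* in Control rat 10 was 104.7 CPM, whereas the other Control rats had 18 to 40.4 CPM, and the gap made up 0.742 of the range of the group. The same rat had 400.4 CPM of *Adora2a* and 130.1 CPM of *Slc17a7*, each the highest in its group. The part of neighboring tissue in the *Tac1* value was not tested.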

How the results depend on the processing

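The count of genes below 5% FDR was 0 in every setting (edgeR, 5 of 10 at an unadjusted p below 0.05; DESeq2 and limma-voom with sample quality weights also 0). The nominal count was 5 and was 1 with glutamatergic and striatal covariates, 3 with the myelin covariate, 3 without the 4 rats rich in *Slc17a7* (an alternative chosen after seeing the data) and 1 to 5 when single rats were left out. The exact permutation test gave 1 gene, and 0 to 4 when single rats were left out. The share of all genes that this test would call is not given, so these counts have no scale. The pathway lists held 2 nominal genes, 1 of 16 receptors tested and 1 of 15 further precursors tested. The lists of CRF partners, processing genes and degrading enzymes held 0. With library size only, the pathway lists held 1. Of all genes, 8.31% were nominal, and 8.39% with library size only. One correlation between the genes passed, 3 with the group means kept, and 0 to 2 when single rats were left out. Of 210 fold changes of the 10 genes, 159 kept their sign and side of the threshold, 39 lost and 3 gained a nominal call, and 9 changed sign. The sign changes were *Npy* (-0.28) and *Cartpt* (-0.57) with the myelin covariate, *Tac1* (0.24) and *Vip* (-0.05) without the 4 rats, *Cartpt* without CIE rat 3 (-0.08), and *Tac1* without CIE rat 1 (0.11), 5 (0.13) or 6 (0.12) or Control rat 10 (0.50); the cause was not tested. With single rats left out, *Tac1* ranged from -0.46 to 0.50 and *Cartpt* from -0.08 to 0.41. *Vip* rested on 42 to 340 counts per rat. No paired analysis was possible because the rats are numbered 1 to 6 in CIE and 7 to 12 in Control and share no number.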
